A study of Mus musculus with 2 samples.

Results

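Local steroid hormone metabolism was described through 10 genes of the 22740 in the expression table, taken by symbol: Star, Cyp11a1, Cyp19a1, Hsd11b1, Hsd11b2, Hsd17b1, Hsd17b2, Srd5a1, Sult1e1 and Akr1c18. All 10 were found. RNA was sequenced from the whole uterus of 2 C57BL/6 mice on day 4 of pregnancy, with 1 library for each animal, called uterus 1 and uterus 2. Both libraries belong to 1 group, titled WT, with no treated, mutant or non-pregnant group beside them, so the data give levels and the difference between 2 animals. The animals' ages are not given in the sources used here. Values are the authors' RPKM, reads scaled to transcript length and library size, so levels can be ordered between genes.

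Steroid hormones reach the uterus mainly from the ovary and adrenal gland, and enzymes inside the tissue then decide how much active hormone meets its receptor. Star carries cholesterol to the inner mitochondrial membrane, Cyp11a1 cleaves its side chain to pregnenolone, and Cyp19a1 (aromatase) makes oestrogens from androgens. Other enzymes convert hormones between active and weak forms, often as opposed pairs: Hsd17b1 makes oestradiol from oestrone and Hsd17b2 does the reverse, while Hsd11b1 regenerates active glucocorticoid and Hsd11b2 inactivates it. In the mouse, day 4 is the time at which ovarian progesterone and a small rise of oestrogen make the uterus receptive to the blastocyst.

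The reads behind the values were recovered from the RPKM steps and summed to 3790458 in uterus 1 and 4209761 in uterus 2. All 5 epithelium, 6 stroma and 5 smooth muscle markers lay at 1 RPKM or more in both libraries, as did 5 of 6 leukocyte markers. Their summed levels in uterus 1 and uterus 2 were 243.7 and 279.1 RPKM for epithelium, 5116 and 4888 RPKM for stroma, 1741 and 1737 RPKM for smooth muscle, and 290.7 and 312.9 RPKM for leukocytes. The highest gene of each list was Krt18 at 82.4 ± 16.9 RPKM, Col3a1 at 1924 ± 22.1 RPKM, Acta2 at 622.3 ± 42.97 RPKM and Lyz2 at 226.9 ± 12.7 RPKM (SD, n = 2). In whole tissue, fewer cells of a type and less RNA per cell cannot be told apart.

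Hsd11b2 stood far above the other 9 genes, at 97.9 ± 26.9 RPKM (SD, n = 2). Detection was set at 1 RPKM or more in both uteri, which 4 of the 10 reached: Hsd11b2, Star, Srd5a1 and Hsd11b1. Over all genes 58.4% were detected. Cyp11a1, Hsd17b1 and Akr1c18 were below 1 RPKM in at least 1 uterus, on 1 to 5 reads each. Cyp19a1, Hsd17b2 and Sult1e1 were listed at 0 in both uteri, as were 23.4% of all genes. The median over the 10 genes was 0.520 RPKM in uterus 1 and 0.680 in uterus 2, against 3.28 and 3.23 over all genes.

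**Figure D1:**
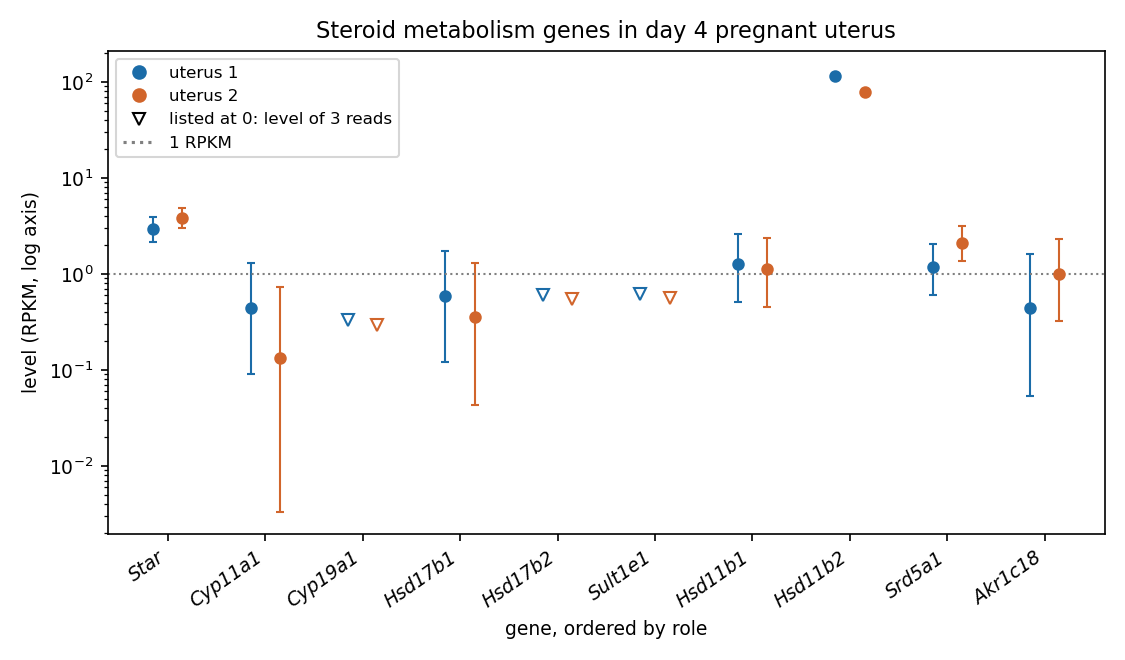
Level of each gene in RPKM (log axis) in uterus 1 and uterus 2, ordered by role; bars are 95% exact Poisson intervals from the recovered reads, and open triangles mark the level that 3 reads would give for a gene listed at 0. Hsd11b2 lies at 116.9 and 78.9 RPKM, and every other gene lies below 4 RPKM.

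The promoters are shown because the 10 genes divide into 2 with many CpG dinucleotides and 8 with few. The 250 bases before each deposited transcript start were read from mouse build NCBIM37. The median over 22666 promoters was 10 CpG dinucleotides. Srd5a1 had 20 and Hsd11b2 had 17, whereas the other 8 had between 1 and 5. The sequences of these 2 CpG-rich promoters and of the 2 poorest, Hsd11b1 and Sult1e1 with 1 CpG each, are given 5′ to 3′, with matches to the 3 motifs searched in capitals.
Hsd11b2 (chr8:108042396-108042645, plus strand): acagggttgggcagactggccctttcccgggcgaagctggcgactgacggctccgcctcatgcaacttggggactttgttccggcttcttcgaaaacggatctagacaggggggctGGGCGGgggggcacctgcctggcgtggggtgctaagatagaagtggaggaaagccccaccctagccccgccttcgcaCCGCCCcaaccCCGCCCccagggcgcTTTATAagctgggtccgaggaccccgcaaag
Srd5a1 (chr13:69750342-69750591, minus strand): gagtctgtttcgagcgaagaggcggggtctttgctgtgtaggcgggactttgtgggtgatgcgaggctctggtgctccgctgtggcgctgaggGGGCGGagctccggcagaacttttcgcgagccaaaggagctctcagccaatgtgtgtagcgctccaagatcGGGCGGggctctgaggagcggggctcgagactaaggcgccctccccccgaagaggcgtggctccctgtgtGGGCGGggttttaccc
Hsd11b1 (chr1:195090240-195090489, minus strand): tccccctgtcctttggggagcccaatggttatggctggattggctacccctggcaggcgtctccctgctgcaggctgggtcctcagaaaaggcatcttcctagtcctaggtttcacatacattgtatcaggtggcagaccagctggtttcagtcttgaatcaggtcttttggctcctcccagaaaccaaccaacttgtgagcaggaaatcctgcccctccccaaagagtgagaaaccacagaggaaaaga
Sult1e1 (chr5:88020637-88020886, minus strand): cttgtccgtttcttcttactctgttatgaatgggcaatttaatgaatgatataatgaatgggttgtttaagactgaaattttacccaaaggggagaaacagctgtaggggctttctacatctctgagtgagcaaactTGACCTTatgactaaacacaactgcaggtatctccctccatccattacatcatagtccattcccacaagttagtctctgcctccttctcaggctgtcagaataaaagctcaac

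The motifs were the GC box GGGCGG, the TATA box TATAAA and the steroidogenic factor 1 half-site AAGGTCA, each searched on both strands, and no 2 different motifs overlapped in a printed sequence. The GC box was found 3 times in Hsd11b2, 3 times in Srd5a1 and once in Akr1c18, and 43.3% of all promoters held it. TATAAA was found in Hsd11b2, where it starts 31 bases before the transcript start on the opposite strand, and also in Cyp19a1 and Hsd17b2, against 11.9% of all promoters. AAGGTCA was found in Cyp19a1 and Sult1e1, against 3.44% of all promoters. Both genes above the median CpG count, Hsd11b2 and Srd5a1, were detected, as were 2 of the 8 below it, Star and Hsd11b1. Over all genes, 83.0% of those at or above the median count were detected and 33.6% of those below it. A match is a string of letters and not a measured binding site.

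**Figure D2:**
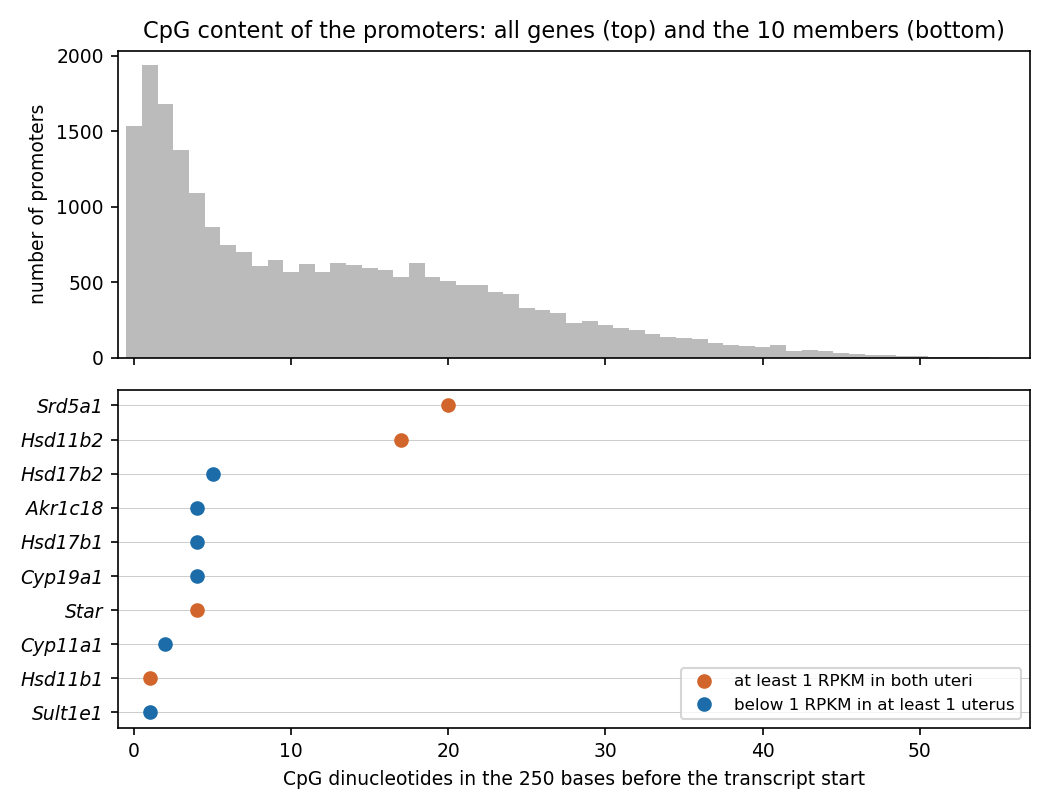
Number of CpG dinucleotides in the 250 bases before the transcript start, as a histogram over all promoters (top) and for each of the 10 genes (bottom), with genes detected at 1 RPKM in both uteri in orange. Srd5a1 and Hsd11b2 lie at 20 and 17 CpG and the other 8 genes at 5 or fewer.

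Among the genes that start steroid synthesis, Star (NM_011485, chromosome 8, 26918985 to 26926454, NCBIM37) lay at 2.93 RPKM in uterus 1 and at 3.87 RPKM in uterus 2. These levels rest on 45 and 66 reads and a transcript length of 4007 bases implied by the values, where the nearest annotated transcript has 2787. The values differed 1.32-fold with a 95% exact counting interval of 0.891 to 1.98, so no difference was detectable at this depth. Star was at the middle of the table, with 50.5% of all genes lower in mean level.

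Cyp11a1 (NM_019779, chromosome 9, 57862824 to 57874830) lay at 0.441 RPKM in uterus 1 and at 0.132 RPKM in uterus 2. That is 3 reads and 1 read, so the ratio of uterus 1 over uterus 2, 3.33, has a counting interval from 0.267 to 174.8. Cyp11a1 was therefore seen near the level of single reads, below Star in both animals. The ranges of Cyp11a1 and Hsd17b1 over the 2 uteri overlapped.

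The wider synthesis list held 16 genes, of which 15 were measured and Cyb5a was not analysed here. Of the 15, 5 were detected, or 33.3%. The 5 were Tspo at 42.1 ± 1.80 RPKM, Por at 25.4 ± 1.33 RPKM, Fdx1 at 15.1 ± 0.0969 RPKM, Fdxr at 8.91 ± 0.748 RPKM and Star (SD, n = 2 for each). Fdx1, Fdxr and Por are electron carriers that serve steroid-making P450 enzymes among others, and Tspo is a mitochondrial outer membrane protein. Hsd3b1, Hsd3b2, Cyp17a1 and Cyp11b2, which act between pregnenolone and the active hormones, were listed at 0 in both uteri. Cyp21a1, the 21-hydroxylase of adrenal steroid synthesis, held 1 read and 7 reads. Hsd3b3 and Hsd3b6, of the same family as Hsd3b1, held 1 to 2 reads and 0 to 1 read. The Hsd3b genes are similar copies. How reads that fit several of them were treated is not given, so reads among them are uncertain.

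All 10 genes of cholesterol supply were detected, with a median of 13.9 RPKM. Npc2, which moves cholesterol out of lysosomes, was highest at 55.1 ± 4.24 RPKM, followed by the exporter Abca1 at 41.7 ± 0.825 RPKM, Soat1 at 32.1 ± 1.57 RPKM, Scarb1 at 16.5 ± 1.27 RPKM and Npc1 at 15.9 ± 1.88 RPKM (SD, n = 2).

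Of the regulators of steroid-making cells, 4 of 10 were detected: Creb1 at 16.0 ± 3.05 RPKM, Foxl2 at 8.21 ± 0.536 RPKM, Gata6 at 3.72 ± 0.165 RPKM and Nr5a2 at 1.75 ± 0.370 RPKM (SD, n = 2). Nr5a1, which encodes steroidogenic factor 1, held 0 reads in uterus 1 and 1 read in uterus 2. The gonadotropin receptor genes Lhcgr and Fshr were listed at 0 in both.

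Ovary markers were measured beside these genes because ovarian tissue carries Star and Cyp11a1. Of 11 markers 3 were detected, with a summed level of 16.8 RPKM in uterus 1 and 17.5 RPKM in uterus 2. Foxl2 was highest. Lhcgr, Fshr, Cyp17a1 and Zp3 were listed at 0 in both uteri. Of 4 oviduct markers 3 were detected, summing to 17.7 and 21.4 RPKM, with Pax8 highest at 10.7 ± 0.0438 RPKM and Foxj1 listed at 0. The part of neighbouring tissue in the Star level was not tested.

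Cyp19a1 (NM_007810, chromosome 9, 54013744 to 54041249) was listed at 0 RPKM in both uteri. If these entries are counts of 0, they allow a level of up to 0.330 RPKM in uterus 1 and 0.297 RPKM in uterus 2, taking 3 reads as the limit. A listed 0 is not read as absence, since Rpl26, a gene of the ribosome that nearly every cell uses, was listed at 0 in both as well.

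Of the oestrogen-converting pair, Hsd17b1 (NM_010475, chromosome 11, 100939725 to 100941819) lay at 0.594 RPKM in uterus 1 and at 0.357 RPKM in uterus 2, on 3 and 2 reads. The ratio of uterus 1 over uterus 2 was 1.67 with a counting interval of 0.191 to 19.9. Hsd17b2 (NM_008290, chromosome 8, 120225846 to 120282929) was listed at 0 in both, where 3 reads would be 0.611 and 0.551 RPKM. With 3 reads or fewer in each library, the order of Hsd17b1 and Hsd17b2 could not be read at this depth.

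The 17-beta hydroxysteroid dehydrogenase family differed among its own members. Of 12 genes 6 were detected, with Hsd17b10 at 54.1 ± 3.99 RPKM, Hsd17b4 at 43.8 ± 0.0229 RPKM, Hsd17b12 at 30.4 ± 2.72 RPKM, H2-Ke6 (also called Hsd17b8) at 25.01 ± 0.213 RPKM, Hsd17b11 at 15.96 ± 2.82 RPKM and Hsd17b7 at 1.69 ± 0.430 RPKM (SD, n = 2). Hsd17b4 and Hsd17b12 are best known for work in fatty acid metabolism. Hsd17b6 and Hsd17b13 were, with Hsd17b2, listed at 0 in both uteri. Hsd17b3, which makes testosterone in the testis, held 1 read and 0 reads.

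Sult1e1 (NM_023135, chromosome 5, 88004993 to 88020636), the oestrogen sulfotransferase that inactivates oestradiol, was also listed at 0 in both uteri. A count of 0 would allow up to 0.621 RPKM in uterus 1 and 0.559 RPKM in uterus 2. The sulfation list held 9 genes, of which 8 were measured and Sts was not analysed here. Of the 8, 5 were detected. Sult1a1, a sulfotransferase of phenols, lay at 32.1 ± 7.20 RPKM and Papss1, which makes the sulfate donor, at 30.02 ± 2.02 RPKM (SD, n = 2). The sulfate donor transporter Slc35b2 lay at 21.1 ± 3.60 RPKM, the sulfatase activator Sumf1 at 15.6 ± 2.61 RPKM and the second donor-making gene Papss2 at 3.64 ± 1.56 RPKM. Sult2a1 was listed at 0 with Sult1e1.

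Oestrogen and other steroids can also be hydroxylated or methylated. Of 7 genes on that list 4 were detected, among them Cyp1b1 at 15.2 ± 2.83 RPKM, Cyp7b1 at 8.54 ± 2.03 RPKM and Cyp26a1, a retinoic acid hydroxylase, at 3.52 ± 0.427 RPKM (SD, n = 2). Cyp1a2 and Cyp3a13 were listed at 0.

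**Figure D3:**
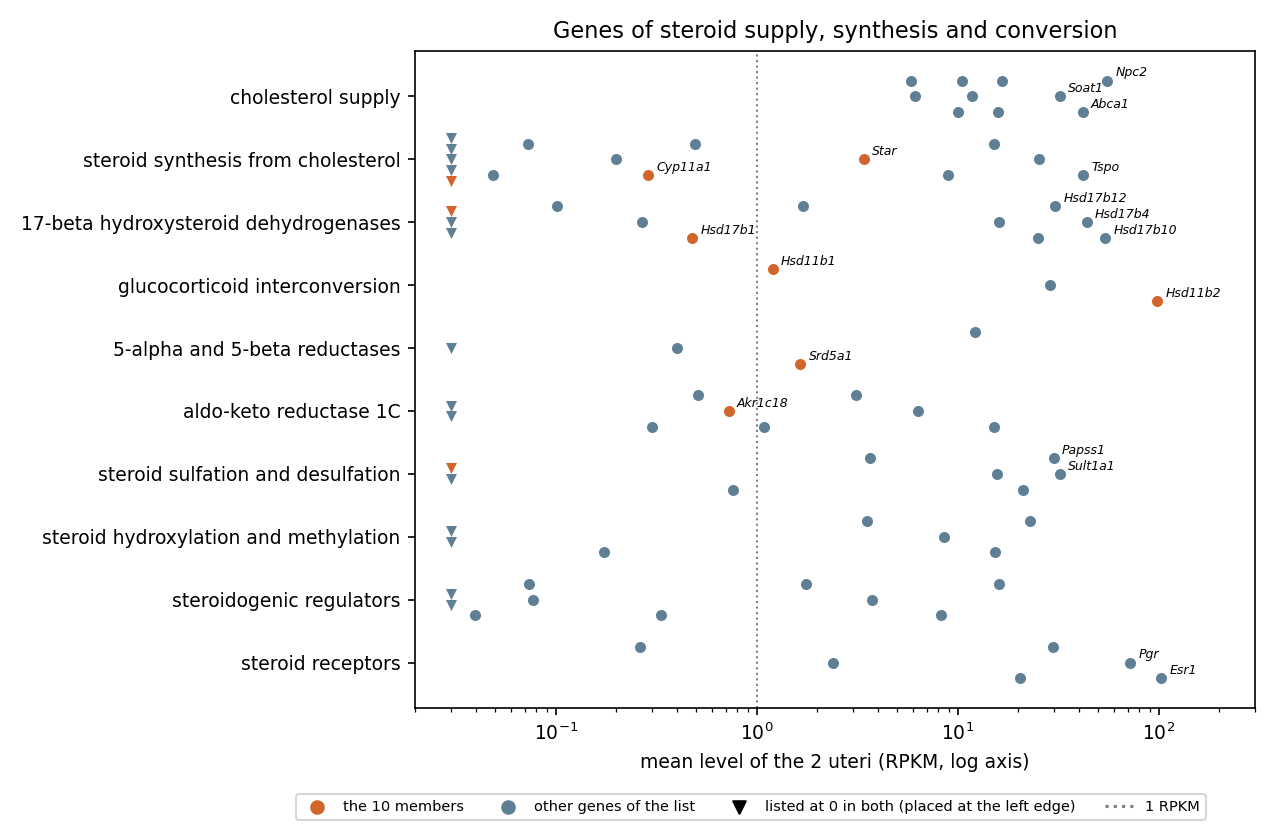
Mean level of the 2 uteri in RPKM (log axis) for every measured gene of 10 pathway lists, with the 10 genes in orange, other genes in blue-grey, and any gene listed at 0 in both uteri as a triangle at the left edge. Of the 84 genes, 47 lie at 1 RPKM or more in both uteri, and Hsd11b2 and Esr1 lie furthest to the right.

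Glucocorticoid conversion held the highest member. Hsd11b2 (NM_008289, chromosome 8, 108042646 to 108047888) lay at 116.9 RPKM in uterus 1 and at 78.9 RPKM in uterus 2, on 829 and 621 reads. Its 95% exact Poisson intervals were 109.1 to 125.2 RPKM and 72.8 to 85.4 RPKM. The 2 intervals did not overlap, so the values differed by more than counting error. It ranked 495 of 22740 genes by mean level, above 97.8% of them.

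Hsd11b1 (NM_008288, chromosome 1, 195047835 to 195090239) lay at 1.26 RPKM in uterus 1 and at 1.14 RPKM in uterus 2, on 7 reads in each. Their Poisson intervals ran from 0.508 to 2.60 RPKM and from 0.458 to 2.35 RPKM. Within a library, Hsd11b2 was 92.6-fold above Hsd11b1 in uterus 1 (95% exact counting interval 44.7 to 230.9) and 69.3-fold above it in uterus 2 (33.4 to 173.2). The inactivating member of the pair was thus the higher transcript in both animals.

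H6pd, which supplies the cofactor that lets Hsd11b1 run as a reductase, lay at 28.6 ± 0.783 RPKM (SD, n = 2), 23.1-fold above Hsd11b1 in uterus 1 and 24.7-fold in uterus 2. Fat, a tissue rich in Hsd11b1, was checked by 6 markers: none was detected, their sums were 1.71 and 0.489 RPKM, Fabp4 was highest and Adipoq, Cidec and Retn were listed at 0.

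Of the receptors whose ligands these enzymes convert, Nr3c1 (glucocorticoid receptor) lay at 20.3 ± 0.244 RPKM and Nr3c2 (mineralocorticoid receptor) at 2.39 ± 0.946 RPKM (SD, n = 2). Hsd11b2 was 5.81-fold and 3.86-fold above Nr3c1 in uterus 1 and uterus 2, and 38.2-fold and 45.8-fold above Nr3c2. Of 6 receptor genes 5 were detected, with Esr1 at 103.1 ± 5.46 RPKM and Pgr at 71.95 ± 7.90 RPKM, while Esr2 held 5 and 2 reads.

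Srd5a1 (NM_175283, chromosome 13, 69712327 to 69750341), which reduces progesterone and androgens, lay at 1.17 RPKM in uterus 1 and at 2.12 RPKM in uterus 2, on 12 and 24 reads. The 1.80-fold difference had a counting interval of 0.867 to 3.95. Its range over the 2 uteri overlapped that of Hsd11b1, so these neighbours in the order of levels did not differ beyond their spread. Srd5a3, whose main role is in making the lipid carrier for protein glycosylation, was higher, at 12.2 ± 0.0125 RPKM (SD, n = 2). That was 10.4-fold above Srd5a1 in uterus 1 (5.66 to 20.98) and 5.77-fold in uterus 2 (3.65 to 9.47). Srd5a2 was listed at 0, and Akr1d1, the bile acid and steroid reductase of liver, held 2 and 7 reads.

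Akr1c18 (NM_134066, chromosome 13, 4131873 to 4149877), which inactivates progesterone in the ovary before birth, lay at 0.445 RPKM in uterus 1 and at 1.002 RPKM in uterus 2, on 2 and 5 reads. The ratio of uterus 2 over uterus 1 was 2.25 with a counting interval of 0.369 to 23.7. Of its family of 9 aldo-keto reductases 3 were detected: Akr1c14, which acts on reduced progesterone and androgens, at 15.2 ± 0.691 RPKM, Akr1c19 at 6.30 ± 1.79 RPKM and Akr1c13 at 3.11 ± 0.0877 RPKM (SD, n = 2). Akr1cl had a mean of 1.09 ± 0.178 RPKM but lay below 1 RPKM in uterus 1. In uterus 2 taken alone, 5 of the 9 reached 1 RPKM. Akr1c6 and Akr1c20 were listed at 0 in both. Akr1c14 was 35.2-fold above Akr1c18 in uterus 1 (9.58 to 293.6) and 14.7-fold in uterus 2 (6.15 to 45.8). These genes are similar copies, and how reads that fit several copies were treated is not given in the sources used here.

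Markers of the embryo, of decidua (transformed uterine stroma) and of liver were checked as well. None of 8 blastocyst and trophoblast markers was detected, their sums were 3.44 and 3.47 RPKM, Eomes was highest and Cdx2, Hand1 and Prl3d1 were listed at 0. Of 5 decidua markers 3 were detected, summing to 6.27 and 5.21 RPKM, with Alpl highest and Prl8a2 and Prl3c1 at 0. Of 4 liver markers Ttr was detected, and Apoa1 was listed at 0. The liver sums of 26.7 and 5.50 RPKM differed through Serpina1e, at 22.4 RPKM in uterus 1 and listed at 0 in uterus 2. Alb, another liver marker, held 0 reads in uterus 1 and 1 read in uterus 2.

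In order of mean level, Hsd11b2 was followed by Star, Srd5a1, Hsd11b1, Akr1c18, Hsd17b1 and Cyp11a1, and then by the 3 genes listed at 0. Neighbours overlapped in their range over the 2 uteri for Srd5a1 and Hsd11b1, for Akr1c18 and Hsd17b1, and for Hsd17b1 and Cyp11a1. The lower value of Hsd11b2, 78.9 RPKM, lay above the higher value of Star, 3.87 RPKM. The lower value of Star, 2.93 RPKM, lay above the higher value of Srd5a1, 2.12 RPKM, with Poisson intervals that were apart in uterus 1, at 2.14 to 3.92 RPKM and 0.607 to 2.05 RPKM, and overlapped in uterus 2, at 2.99 to 4.92 RPKM and 1.36 to 3.15 RPKM. Hsd11b1 and Akr1c18 did not overlap in RPKM, at 1.14 and 1.002 RPKM for the nearest values, but their Poisson intervals did.

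The difference between the animals was tested on the recovered reads by a two-sided exact binomial test, with Benjamini-Hochberg adjustment over all 15132 genes with at least 6 reads in sum. It compares these 2 libraries and not 2 conditions. Of the 10 genes, 5 had enough reads and 1 was called at an adjusted p under 0.05, where the test called 4.74% of all genes. Hsd11b2 was higher in uterus 1 by 1.48-fold, with a counting interval of 1.33 to 1.65 and an adjusted p of 3.0e-11 in this exact test. With 0.1 RPKM added to each value as a pseudocount, its log2 ratio (uterus 2 over uterus 1) was -0.57. The exact test gave adjusted p-values of 0.555 for Star, 0.449 for Srd5a1, 0.835 for Akr1c18 and 1 for Hsd11b1. A call depends on reads: among 1241 genes within 1.5 times the summed reads of Hsd11b2, 15.1% were called.

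Beside this difference, the markers within a cell type did not all run the same way as their sums given above. Of the 6 stroma markers 2 were higher in uterus 1, Col1a1 at 1184 against 850.7 RPKM and Col1a2 at 987.6 against 856.9 RPKM, and both were called by the exact test. The other 4 were higher in uterus 2, and the exact test called 2 of them, Vim and Dcn. Of the 5 epithelium markers 3 were higher in uterus 2, with Krt18 called, and of the 6 leukocyte markers 3 were higher in each library, with 0 called. Of the 5 smooth muscle markers 4 were higher in uterus 2, with Myh11 called, while Acta2 was called higher in uterus 1. The GC content of the Hsd11b2 transcript was 57.8%, against a median of 49.7% over genes with at least 100 reads in both libraries. Among 989 such genes within 2 percentage points of it, the median log2 ratio was -0.06. After that shift, the log2 ratio of Hsd11b2 was -0.51, with an adjusted p of 4.2e-09 in the same exact test. Neither the part of cell makeup nor that of GC content in the difference was tested. A median shift leaves the spread among genes of like GC content out of account.

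Among the 4 members of the set averaging 1 RPKM or more, 0 were at least 2-fold apart on the log2 scale with the pseudocount, where 2.60% of all such genes were. Among the 74 other pathway genes, 48 had enough reads and 6 were called. Higher in uterus 1 were 5, where the test called 2.54% of all genes in that direction. They included Papss2, Cyp1b1 and Pgr. Higher in uterus 2 was 1, Creb1, where it called 2.20%. Of the 44 of these genes averaging 1 RPKM or more, 1 was at least 2-fold apart.

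**Figure D4:**
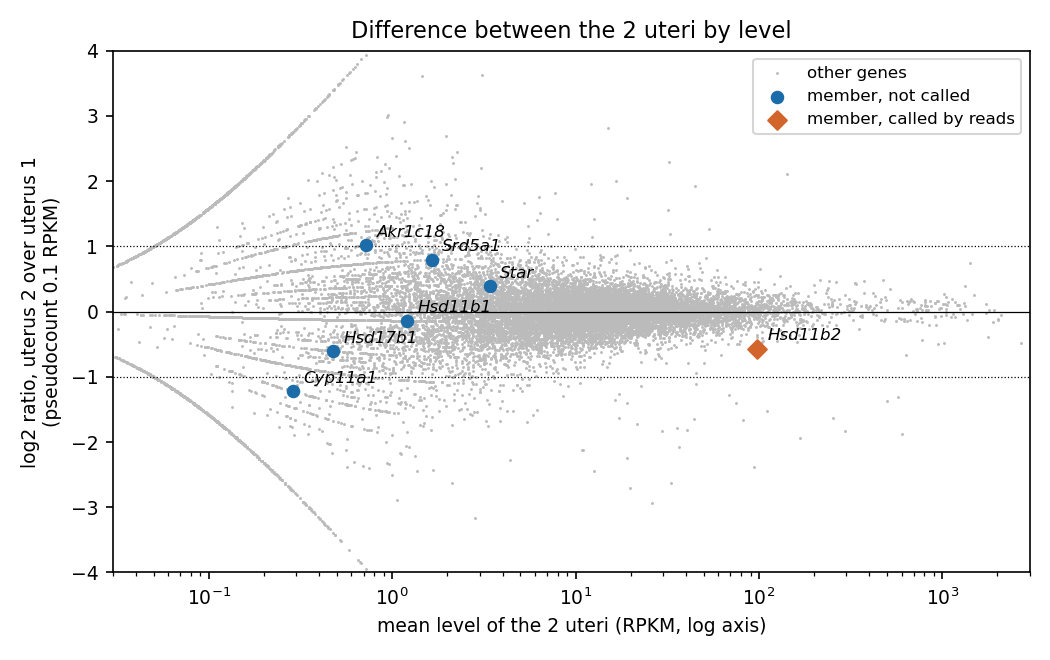
Log2 ratio of uterus 2 over uterus 1 (pseudocount 0.1 RPKM) against mean level in RPKM (log axis) for all genes above 0 in grey, with 7 of the 10 genes marked; Cyp19a1, Hsd17b2 and Sult1e1 were listed at 0 and have no ratio, and genes beyond 4 on the vertical axis are not shown. Hsd11b2 lies at -0.57 and is the called gene (orange diamond), while Cyp11a1 and Akr1c18 lie beyond 1 in size on 1 to 5 reads.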

How the data were processed

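RNA of whole uterus from 2 mice on day 4 of pregnancy was sequenced. Per the labels' protocols, TRIzol-extracted total RNA (1 microgram) went into TruSeq RNA kit libraries. The deposited values are RPKM, scaled by the authors per the labels. The submitters' processing notes name TopHat, edgeR and mm9. The read counter, annotation release, strand setting and versions are not given in the sources used here.

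The authors' RPKM are whole reads divided by a whole length and a library scaling total. Totals of 3834174.4177 and 4256101.0143, which are not whole numbers and so not plain read totals, made all 297 and 300 single-exon values whole within 1e-06 reads. Each gene's length and reads followed as the smallest whole numbers, or a multiple nearer to a GENCODE M1 length on NCBIM37, the same assembly as mm9. For 1205 genes without an annotated length the smallest were kept. All members used the smallest numbers or, if listed at 0, the length of a transcript with the same ends. Coordinates count from 1. Intervals (95%) and limits of 3 reads cover counting error only. PCR copies are not independent molecules, and 2 libraries give no measure of spread beyond these animals.

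The members and lists were chosen with earlier results of these data known. All members were named, with up to 5 genes per pathway list by mean RPKM (from 1 RPKM) and those listed at 0, and of each marker list the highest and those at 0. Further genes were named after their values were seen. Tests used scipy 1.17.1 and numpy 2.4.6, and the binomial test was tested on simulated data. Alternatives covered thresholds, pseudocounts, filters, scaling and reads. Some genes of the lists enter the counts but are not reported here by name. No column of values was left unmatched.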

Additional observations from a re-analysis of the deposited data

How the results depend on the processing

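A threshold of 2 RPKM left 2 of the 10 genes detected in place of 4, and TPM, a scale that divides by the summed RPKM of each library, gave 5. Leaving out each library in turn gave 4 to 5. Without a filter on the mean, 2 of the 10 genes were at least 2-fold apart in place of 0, and on the TPM scale 1 was, because genes on a few reads then entered. The exact binomial test called 1 of the 10 genes with the smallest possible reads, a minimum of 20 reads, another expected split and the TPM scale, while the calls over all genes ranged from 581 to 741. The smallest possible reads and the minimum of 20 reads leave the reads of the called gene, Hsd11b2, unchanged. These settings therefore say little about its call. Of the 84 pathway genes, 42 to 50 were detected under the 5 alternatives, against 47. The log2 ratios of the 5 tested genes kept their direction under all 6 alternatives, and their adjusted p its side of 0.05. The pseudocounts and the smallest possible reads could not change a direction, so only the other alternatives test it. The pseudocount does not enter the adjusted p either. The size moved most for Akr1c18, on 7 reads in sum: its log2 ratio was 1.02, against 0.47 with a pseudocount of 1 RPKM and 0.97 after the shift by GC content, both under a 2-fold difference. Of the 6 alternatives, the shift by GC content was chosen after seeing the data. Leaving out genes listed at 0 raised the median of 7 pathway lists by construction, and the means of 7 of the 10 genes moved on the TPM scale because the unit changes. In 4 of the 5 tested genes no call existed to be lost. No paired analysis was possible because both samples belong to the same group. Cyp11a1, Hsd17b1 and Akr1c18 are limited by depth, and 1 read of Cyp11a1 is worth 0.147 RPKM in uterus 1.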

Other observations

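Among the 1241 genes within 1.5 times the summed reads of Hsd11b2, a range chosen after its value was seen, 6 had a log2 ratio at least as far from 0 as its own, Hsd11b2 included, and all 6 were lower in uterus 2. The other 5, named after their values were seen, were Rprl3 at -1.32, Gm20594 at -0.67, Notch3 at -0.63, Nfic at -0.62 and Hcfc1 at -0.58. The median size of the log2 ratio over the 1241 genes was 0.10. With 1 library for each animal, the animals and their libraries cannot be told apart.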
